A study of Rattus norvegicus with 3 samples.

Results

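The platelet-derived growth factor (PDGF) family was followed gene by gene through the cell types of the rat heart. The 6 members, 4 ligand genes (Pdgfa, Pdgfb, Pdgfc, Pdgfd) and 2 receptor genes (Pdgfra, Pdgfrb), were taken by symbol from the 22250 genes of the deposited count matrices, and all 6 were present. Single-nucleus RNA sequencing had been run on the heart apex of rats aged 12 months, with 1 library for each of 3 genotypes. The WT library carried wild-type Dmd, the dystrophin gene, and how many rats gave each library is not given in the sources used here. The BMD library carried an in-frame CRISPR/Cas9 deletion of Dmd exons 45 to 47, made in Sprague Dawley rats as a model of Becker muscular dystrophy, and the DMD library carried a deletion of Dmd exon 52 as a model of Duchenne muscular dystrophy. The comparisons asked which cell types held each ligand and receptor transcript, and how their levels stood in BMD and DMD against WT.

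PDGF ligands are secreted dimers that bind and pair receptor tyrosine kinases on neighbouring cells. PDGF-A and PDGF-C act mainly through the alpha receptor, the classical receptor of fibroblasts, and PDGF-B and PDGF-D through the beta receptor, which pericytes need to attach to vessels. PDGF-A and PDGF-B are cut by furin-like convertases inside the cell, whereas PDGF-C and PDGF-D are secreted with a blocking domain that plasminogen activators or matriptase remove outside it.

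The 3 libraries held between 19215994 and 21609238 unique molecular identifiers (UMIs, each counting 1 captured transcript). WT counts came from a depth-equalised aggregate of the libraries and those of BMD and DMD from their own files, so these depths are not like for like. The 24664 nuclei had medians of 1212.5, 1486.5 and 1229 UMIs in WT, BMD and DMD, and pairs of libraries shared between 12 and 20 nuclear barcodes. Of 16 clusters, 12 were named from marker genes, without the members, and 1882 nuclei stayed in 4 unnamed clusters. A level is given as CPM (counts per 1e+06), the UMIs of a gene over all UMIs of a class scaled to 1e+06, for the 8 classes with at least 50 nuclei in each library. With 1 library per genotype there was no replicate and no test, and the 95% intervals cover counting error only. Transcript ends were counted, so levels were not compared between genes. Dmd in cardiomyocyte-like nuclei stood at 16374 CPM in WT, 20341 in BMD and 19246 in DMD. The labels give a 3′ kit and the running text of the study a 5′ one. With either, the counts are given per gene and not per exon, so they do not check the genotype labels. Free RNA, read from barcodes with at most 50 UMIs, gave an estimated 2.79 to 13.8% of the UMIs of a class. A class level under the free RNA level therefore does not show that the transcripts of that class came from free RNA.

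Pdgfa, the ligand of the alpha receptor, was highest in cardiomyocyte-like nuclei in each library. It stood there at 100.3 CPM in WT (95% interval 92.7 to 108.3, 647 UMIs), 94.4 in BMD (87.2 to 102.0, 639 UMIs) and 73.1 in DMD (64.9 to 82.0, 289 UMIs). The DMD value lay below both others, whose intervals overlapped. Cardiomyocyte-like nuclei held 68.7, 66.8 and 47.5% of all Pdgfa UMIs in WT, BMD and DMD, while they made up 20.9, 23.5 and 14.2% of nuclei. They were also deeper, at medians of 2746, 3667 and 3179 UMIs against 1212.5, 1486.5 and 1229 over all nuclei. As CPM over all nuclei, Pdgfa stood at 54.9, 63.9 and 44.2. The cardiomyocyte-like log2 ratio to WT was -0.46 (-0.66 to -0.25) for DMD and -0.09 (-0.25 to 0.07) for BMD, so the BMD interval included 0.

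Mural-like nuclei, the pericytes and smooth muscle of the vessel wall as 1 class, came next for Pdgfa at 37.2 CPM in WT, 69.5 in BMD and 59.5 in DMD. The mural interval lay below that of cardiomyocyte-like nuclei in WT (24.3 to 54.6), and overlapped it in BMD (49.2 to 95.4) and DMD (41.4 to 82.7). Within the class, the smooth muscle-like sub-cluster (Myh11, Tagln and Acta2 among its leading genes) held 163 CPM in BMD and 216 in DMD, on 14 UMIs each, and 75.8 in WT on 2 UMIs. The pericyte-like sub-cluster (raised Rgs5, Kcnj8 and Abcc9) held 42.2, 55.7 and 34.5 CPM in WT, BMD and DMD. The smooth muscle-like sub-cluster had 29, 71 and 57 nuclei in WT, BMD and DMD, and summed smooth muscle marker levels in mural-like nuclei were 1214, 2501 and 1925 CPM with all 9 markers detected. The log2 ratio of Pdgfa to WT over the whole class was 0.90 (0.14 to 1.68) for BMD and 0.68 (-0.10 to 1.47) for DMD. In the pericyte-like sub-cluster alone it was 0.40 in BMD and -0.29 in DMD. Fibroblast-like nuclei held little Pdgfa, with 11.03, 22.4 and 14.9 CPM in WT, BMD and DMD and a BMD ratio of 1.02 (0.48 to 1.57, 66 UMIs against 54). Their smaller sub-cluster, led by Tnc, Ccl2 and Ptx3, held more of it (36.1, 39.3 and 27.5 CPM) than the larger one, led by Aox3 and Col6a6 (7.83, 18.7 and 13.1). With finer clusters (Leiden resolution 1) the BMD ratio of Pdgfa was 0.48 (-0.21 to 1.21) in a fibroblast-like one led by Ltbp2 and Tnc. It was 0.84 (-0.13 to 1.78) in one led by Abca8a and Bmper. The first held 21.1, 48.2 and 38.0% of fibroblast-like nuclei in WT, BMD and DMD. Endothelial-like levels were 34.6, 46.3 and 35.0 CPM. The 7 classes other than cardiomyocyte-like lay below the free RNA level of Pdgfa in their own library, which was 43.2, 77.3 and 56.4 CPM, with the exception of the DMD mural-like nuclei.

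**Figure D1:**
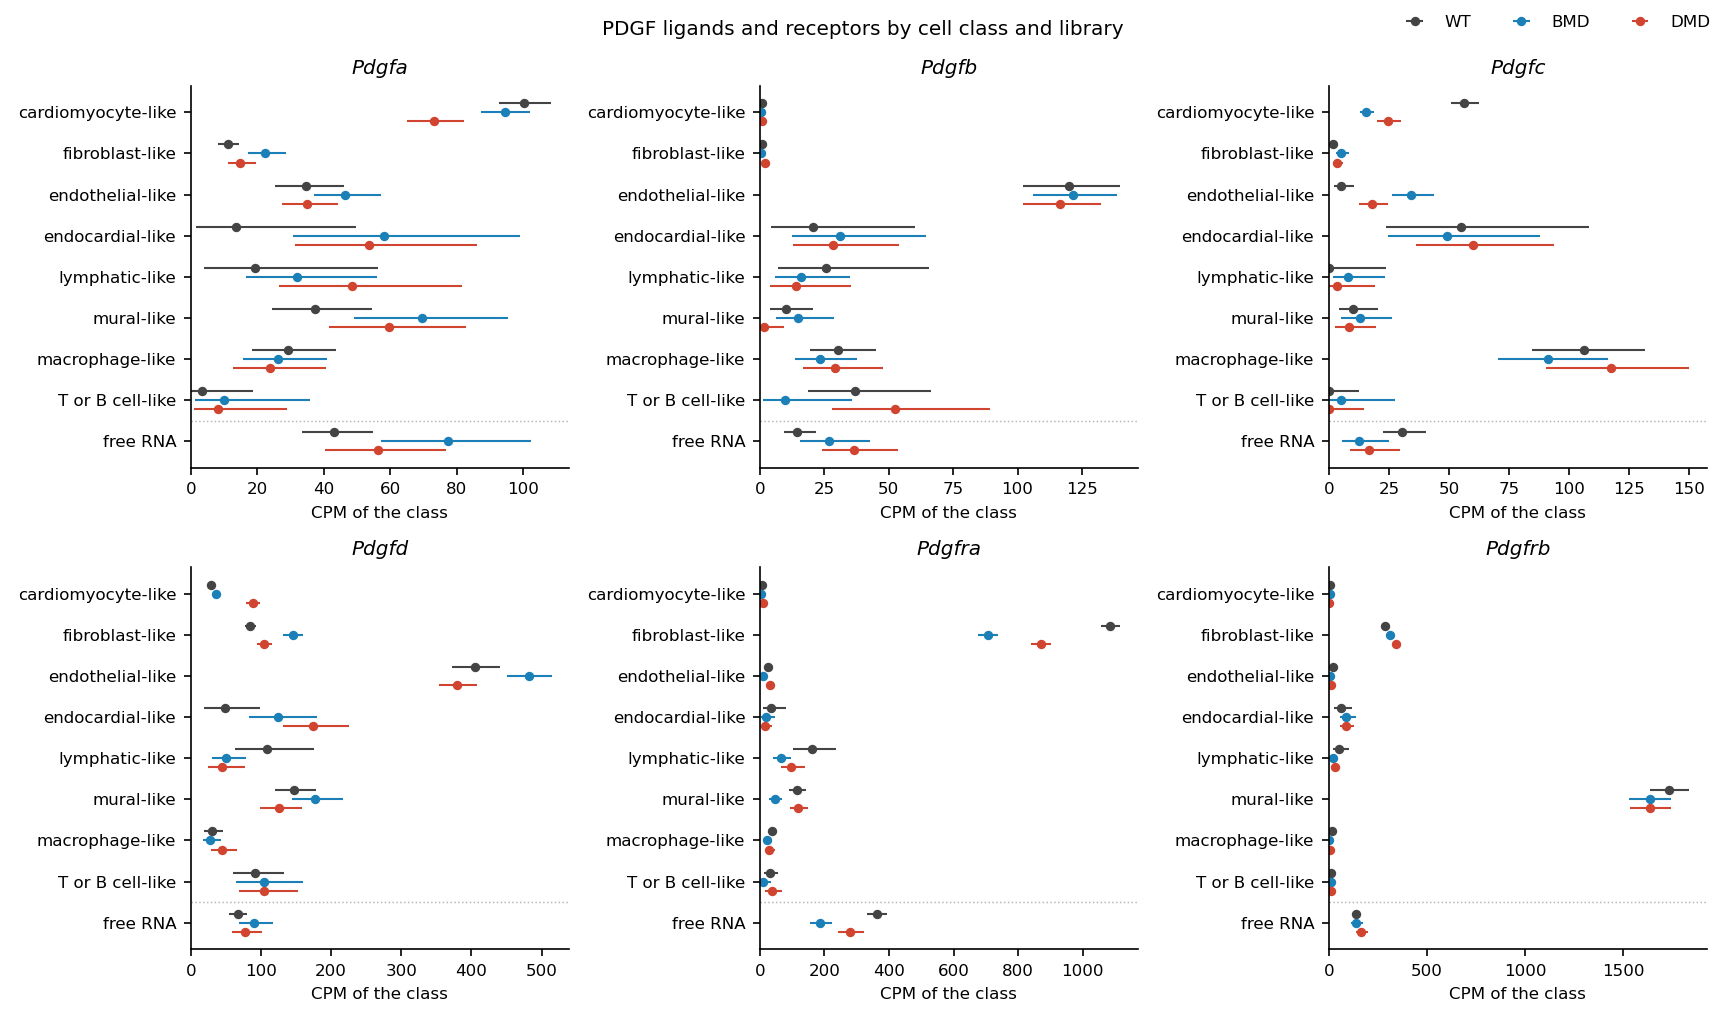
CPM (UMIs of the gene per 1e+06 UMIs of the class) of each member in 8 cell classes and in free RNA, with 1 point per library (WT grey, BMD blue, DMD red) and bars for the 95% Poisson interval. Each panel has its own axis from 0. Pdgfa leads in cardiomyocyte-like nuclei, Pdgfb and Pdgfd in endothelial-like, Pdgfc in macrophage-like, Pdgfra in fibroblast-like and Pdgfrb in mural-like nuclei.

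Pdgfb, the endothelial ligand that recruits pericytes, was highest in endothelial-like nuclei and stood there at close levels in the 3 libraries. It measured 119.9 CPM in WT (102.2 to 139.8, 163 UMIs), 121.6 in BMD (106.1 to 138.6, 223 UMIs) and 116.5 in DMD (102.1 to 132.3, 236 UMIs). All 3 intervals overlapped. The log2 ratios to WT were 0.02 (-0.28 to 0.32) for BMD and -0.04 (-0.34 to 0.26) for DMD, and with nuclei of at least 1000 UMIs they were 0.36 and 0.31. Endothelial-like nuclei held 65.7, 77.7 and 69.0% of Pdgfb UMIs in WT, BMD and DMD. Over all nuclei of a library together, Pdgfb was higher in DMD than in WT by 0.78 on the log2 scale (0.54 to 1.02), beside an endothelial-like share of nuclei of 15.5% in WT, 22.3% in BMD and 24.3% in DMD. Macrophage-like, endocardial-like and T or B cell-like nuclei held between 9.94 and 52.3 CPM, on at most 24 UMIs per library. Cardiomyocyte-like nuclei held between 0.296 and 0.775 CPM and fibroblast-like nuclei between 0.339 and 2.003, under free RNA at 14.6 to 36.6. Lymphatic-like and mural-like nuclei held between 1.70 and 25.7 CPM, on at most 8 UMIs.

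The endothelial-like class was made of 2 clusters. In the cluster led by Dkk2, Sox17 and Gja5, genes known from arterial endothelium, Pdgfb stood at 197, 201 and 249 CPM in WT, BMD and DMD. In the larger cluster, led by Unc5c and Aplnr, it stood at 103, 95.6 and 92.2 CPM. The first cluster was higher in each library, by 1.91-fold in WT, 2.10-fold in BMD and 2.70-fold in DMD. Their DMD over WT ratios were 0.34 in the first cluster (-0.20 to 0.89) and -0.16 in the second (-0.52 to 0.20).

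Pdgfd, a ligand of the beta receptor, differed far more between these 2 clusters. The Dkk2, Sox17 and Gja5-led cluster held 1395 CPM (1251 to 1552) in WT, 1338 (1234 to 1449) in BMD and 1423 (1294 to 1562) in DMD. The Unc5c and Aplnr-led cluster held 189, 199.8 and 189 CPM. The first was higher by 7.38-fold in WT, 6.70-fold in BMD and 7.55-fold in DMD, and within each cluster the 3 library intervals overlapped. Over the whole endothelial-like class Pdgfd stood at 405, 481 and 379.5 CPM in WT, BMD and DMD. The log2 ratio to WT was 0.25 (0.09 to 0.40) for BMD and -0.09 (-0.25 to 0.07) for DMD. The BMD ratio was 0.080 in the Unc5c and Aplnr-led cluster and -0.060 in the other, which had 290, 405 and 330 nuclei in WT, BMD and DMD.

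Outside endothelium, Pdgfd was higher in DMD cardiomyocyte-like nuclei. It measured 28.2 CPM in WT (24.3 to 32.6, 182 UMIs), 35.6 in BMD (31.3 to 40.4, 241 UMIs) and 88.3 in DMD (79.3 to 98.0, 349 UMIs). The DMD value lay above both others with no overlap of intervals, at a log2 ratio of 1.65 to WT (1.38 to 1.91) and 1.31 to BMD (1.07 to 1.55). BMD also lay above WT, at a log2 ratio of 0.34 (0.05 to 0.62). Across 9 alternatives that kept the class, the DMD over WT ratio ranged from 1.501 to 1.723. With each nucleus thinned to 500 UMIs, 1.11% of cardiomyocyte-like nuclei had a Pdgfd UMI in WT, 1.43% in BMD and 3.67% in DMD. The summed level of the endothelial markers in these nuclei was 117 CPM in WT, 174 in BMD and 205 in DMD with 10 of 10 detected, against 11222 to 11726 in endothelial-like nuclei. That of the fibroblast markers was 289, 243 and 489 CPM with 11 of 11 detected. With free RNA subtracted the DMD over WT ratio was 1.71, and with called doublets removed 1.63. The part of other cells' RNA in this level was otherwise not tested.

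Fibroblast-like nuclei held 84.8 CPM (76.8 to 93.4) of Pdgfd in WT, 145 (131.8 to 159.7) in BMD and 105 (94.3 to 116.0) in DMD. BMD lay above both others, with log2 ratios to WT of 0.78 (0.58 to 0.97) for BMD and 0.30 (0.10 to 0.51) for DMD. The higher BMD level was seen in the larger of 2 fibroblast-like sub-clusters (led by Aox3 and Col6a6), at 80.9, 152 and 108 CPM in WT, BMD and DMD. In the smaller sub-cluster, led by Tnc, Ccl2 and Ptx3, the levels were 115, 114 and 84.7 CPM. With finer clusters a higher BMD level was seen in both. Pdgfd stood at 122, 166 and 130 CPM in the Ltbp2 and Tnc-led one and at 71.1, 121 and 83.3 in the Abca8a and Bmper-led one. The BMD log2 ratios were 0.44 (0.15 to 0.73) and 0.76 (0.47 to 1.05). The first held 21.1, 48.2 and 38.0% of fibroblast-like nuclei in WT, BMD and DMD. Endocardial-like nuclei, the lining of the heart chambers, held 48.1 CPM in WT on 7 UMIs, 125 in BMD on 28 and 174 in DMD on 55. The log2 ratios were 1.38 (0.15 to 2.82) for BMD and 1.85 (0.71 to 3.23) for DMD. The DMD ratio met the UMI minimum used below only through its 55 DMD UMIs, and the BMD ratio did not meet it. Lymphatic-like nuclei went the other way, at 109, 50.8 and 45.1 CPM in WT, BMD and DMD on 17, 19 and 13 UMIs. Their ratios were -1.11 (-2.13 to -0.07) for BMD and -1.28 (-2.44 to -0.15) for DMD, both under that minimum. Mural-like levels were 147.5, 177 and 126 CPM and T or B cell-like levels 91.0, 104.4 and 104.6, each with overlapping intervals, beside free RNA at 66.6, 89.9 and 77.5. The smooth muscle-like sub-cluster held 314 CPM of Pdgfd in BMD on 27 UMIs and 262 in DMD on 17, but 75.8 in WT on 2, against 184, 144 and 124 in the pericyte-like one.

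Pdgfc, the other ligand of the alpha receptor, was highest in macrophage-like nuclei. It stood there at 106 CPM in WT (84.7 to 131.5, 84 UMIs), 91.3 in BMD (70.6 to 116.2, 66 UMIs) and 117 in DMD (90.4 to 149.96, 64 UMIs), with all 3 intervals overlapping. The log2 ratios were -0.22 (-0.71 to 0.26) for BMD and 0.14 (-0.35 to 0.63) for DMD. Endocardial-like nuclei followed at 54.9, 49.0 and 59.98 CPM, on 8, 11 and 19 UMIs. T or B cell-like nuclei held 0 UMIs in WT and DMD and 1 in BMD. With finer clusters (Leiden resolution 1) the macrophage-like class was a smaller set, of 245, 388 and 236 nuclei against 651, 563 and 443. In that set the levels were 257, 135 and 187 CPM in WT, BMD and DMD, and the ratios -0.93 and -0.46. The DMD direction thus depends on which nuclei are classed as macrophage-like.

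Pdgfc in cardiomyocyte-like nuclei differed between the libraries. These nuclei held 56.4 CPM in WT (50.8 to 62.5, 364 UMIs), 15.7 in BMD (12.8 to 18.9, 106 UMIs) and 24.5 in DMD (19.9 to 29.9, 97 UMIs). Both mutant libraries lay below WT, and BMD below DMD, with no overlap of intervals. The log2 ratio to WT was -1.85 (-2.18 to -1.53) for BMD and -1.20 (-1.54 to -0.87) for DMD, and it ranged from -1.92 to -1.82 and from -1.34 to -1.14 over 9 alternatives that kept the class. Cardiomyocyte-like nuclei held 64.4, 36.6 and 29.5% of Pdgfc UMIs in WT, BMD and DMD. Free RNA showed the same order, at 30.5 CPM in WT, 12.6 in BMD and 16.9 in DMD.

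The class was made up differently in each library. Of its nuclei, 87.7, 38.5 and 51.7% in WT, BMD and DMD lay in a finer cluster led by Myh6 and Lsamp, and 10.5, 57.6 and 43.5% in one led by Xirp2 and Hs3st2, with the natriuretic peptide genes Nppa and Nppb among its leading genes. Pdgfc was lower in the Xirp2 and Hs3st2-led cluster (28.9, 12.4 and 22.6 CPM, on 24, 57 and 45 UMIs) than in the Myh6 and Lsamp-led one (61.1, 23.2 and 27.2 CPM, on 340, 49 and 51 UMIs), with overlapping intervals in DMD. Within the Myh6 and Lsamp-led cluster the log2 ratio to WT was -1.40 (-1.86 to -0.96) for BMD and -1.17 (-1.62 to -0.74) for DMD. Within the Xirp2 and Hs3st2-led one it was -1.22 (-1.93 to -0.46) for BMD and -0.35 (-1.10 to 0.42) for DMD, where the interval included 0. The BMD ratio was thus smaller in size within either finer cluster than over the class. For Pdgfd the DMD ratio stood at 1.82 (1.52 to 2.13) in the first and 2.22 (1.40 to 3.16) in the second, on 13 WT UMIs. The BMD ratio of Pdgfd stood at 0.67 (0.30 to 1.04) and 0.96 (0.13 to 1.90), both above its class value of 0.34.

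Endothelial-like nuclei were ordered the other way for Pdgfc. They held 5.15 CPM in WT (2.07 to 10.6, 7 UMIs), 34.3 in BMD (26.4 to 43.9, 63 UMIs) and 17.8 in DMD (12.4 to 24.6, 36 UMIs). WT was lowest and its interval lay below both others, although its level rests on 7 UMIs. Free RNA stood at 30.5 CPM in WT, 12.6 in BMD and 16.9 in DMD (8.74 to 29.5). The endothelial-like level lay below it in WT, close to it in DMD and above it in BMD. Free RNA gave only an estimated 7.83, 8.6 and 11.4% of endothelial-like UMIs in WT, BMD and DMD. A level close to that of free RNA therefore does not show that it came from there. The BMD log2 ratio was 2.74 (1.61 to 4.11), and the DMD ratio was 1.79 (0.60 to 3.20) on 43 UMIs over both libraries. Over all nuclei, with the cardiomyocyte-like ones included, the BMD ratio was -0.77. The larger Unc5c and Aplnr-led cluster carried most endothelial-like Pdgfc UMIs, with 6, 50 and 31 in WT, BMD and DMD. Its levels of 5.38, 36.2 and 18.1 CPM were close to those of the Dkk2, Sox17 and Gja5-led cluster, at 4.10, 28.7 and 16.0. The log2 ratio of the smaller to the larger cluster in BMD was -0.34 (-1.34 to 0.57). Sub-clustering split the class otherwise, into a part led by Rasa4 and Selp and a part led by Dkk2 and Kcnt2. With the libraries pooled, these held 25.4 CPM (20.1 to 31.5) and 12.3 CPM (7.98 to 18.2) of Pdgfc, with no overlap. Whether Pdgfc differs within the class thus depends on the split. The macrophage markers summed in endothelial-like nuclei to 119, 111 and 141 CPM in WT, BMD and DMD, with 10 of 10 detected. Cardiomyocyte markers summed to 1243, 1792 and 1555 CPM, with 10 of 10 detected, in the same nuclei. The part of such RNA in the Pdgfc values was not tested beyond the subtraction of free RNA, which gave a BMD ratio of 3.601. Over all alternatives that kept endothelial-like nuclei the BMD ratio ran from 2.23, as the mean of counts scaled per nucleus, to 4.46, with nuclei of at least 1000 UMIs, which lies above the counting interval.

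**Figure D2:**
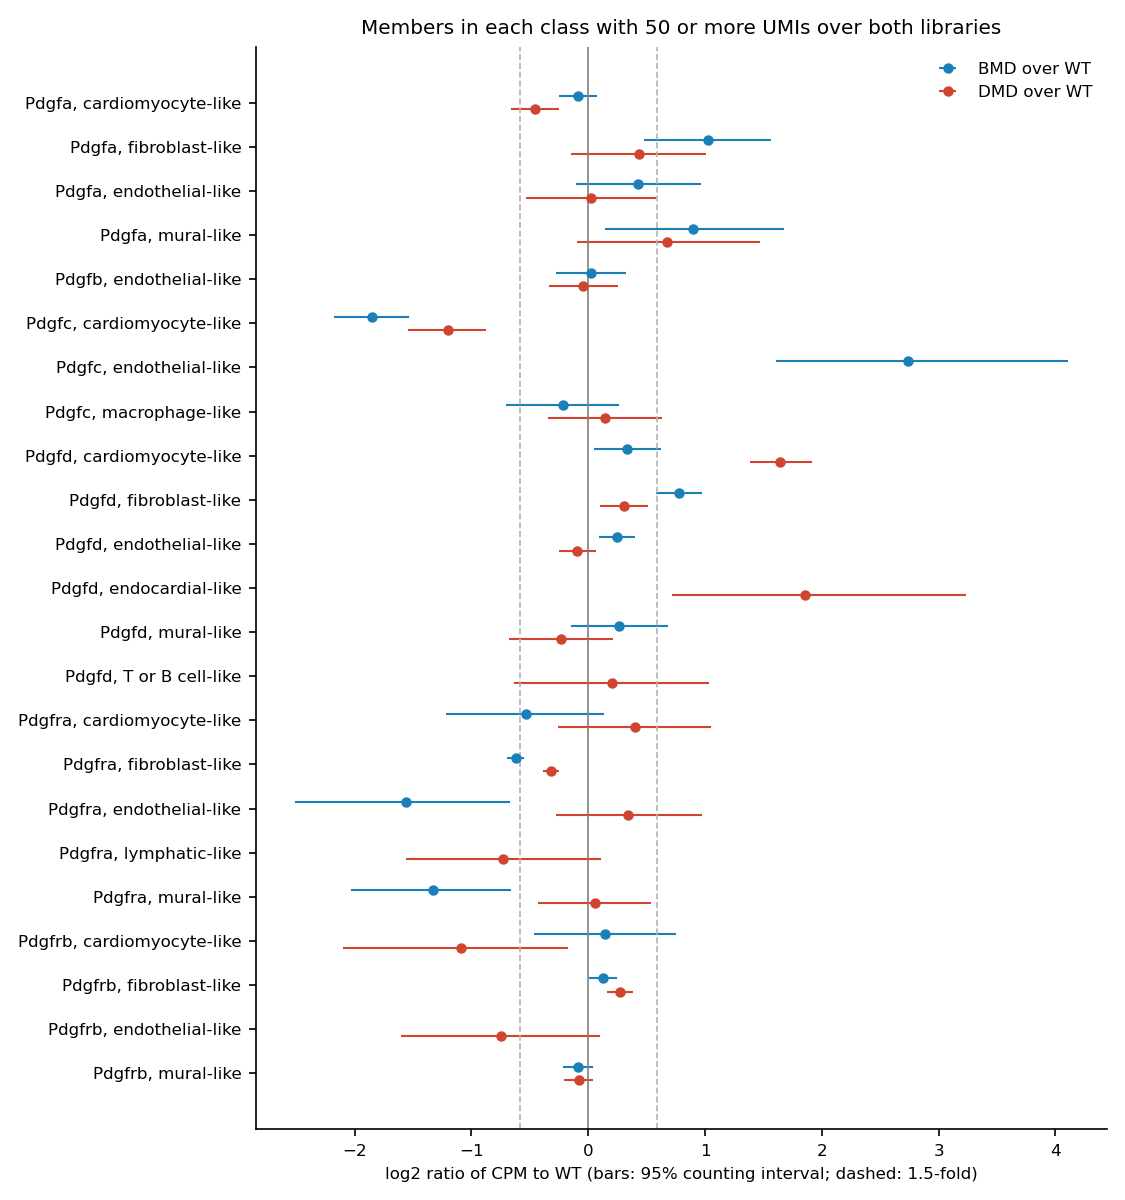
Log2 ratio of CPM to WT for every member and class with at least 50 UMIs over both libraries (BMD over WT blue, DMD over WT red). Bars are 95% intervals for counting error, and dashed lines mark 1.5-fold. Pdgfc lies left of the dashed lines in cardiomyocyte-like nuclei (-1.85 and -1.20). In endothelial-like nuclei it lies right of them in BMD (2.74, on 63 UMIs against 7 in WT). The DMD ratio of endothelial-like Pdgfc is not drawn, at 36 UMIs against 7 in WT. The ratios of Pdgfb in endothelial-like nuclei (0.02 and -0.04) and of Pdgfrb in mural-like nuclei (-0.09 and -0.08) lie close to 0.

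Pdgfra, the alpha receptor, was a fibroblast transcript. Fibroblast-like nuclei held 1086 CPM in WT (1057 to 1116, 5315 UMIs), 706 in BMD (676 to 737, 2082 UMIs) and 871 in DMD (840.0 to 902, 3043 UMIs). The 3 intervals did not overlap, and both mutant libraries lay below WT. The log2 ratios to WT were -0.62 (-0.69 to -0.55) for BMD and -0.32 (-0.38 to -0.25) for DMD. With each nucleus thinned to 500 UMIs, 39.7% (38.1 to 41.3) of fibroblast-like nuclei had a Pdgfra UMI in WT, 27.2% (25.1 to 29.4) in BMD and 33.3% (31.4 to 35.3) in DMD, against 66.9, 59.4 and 63.7% unthinned. In T or B cell-like nuclei, which should lack the gene, the thinned share was 0.882, 0.450 and 2.38%. The median depths of fibroblast-like nuclei were 1217, 1595 and 1359.5 UMIs, and those of T or B cell-like nuclei 749, 810.5 and 836.

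The lower Pdgfra level was measured in both fibroblast-like sub-clusters. In the Aox3 and Col6a6-led one it stood at 1059.7, 740.3 and 887 CPM in WT, BMD and DMD. In the Tnc, Ccl2 and Ptx3-led one it stood at 1291, 554 and 756 CPM. The second sub-cluster exceeded the first in WT, by 1.22-fold, and lay under it in BMD (0.748-fold) and DMD (0.852-fold). With finer clusters the make-up of the class differed between libraries, since 21.1, 48.2 and 38.0% of its nuclei in WT, BMD and DMD lay in a cluster led by Ltbp2 and Tnc and 78.5, 51.1 and 60.9% in one led by Abca8a and Bmper. In the first Pdgfra stood at 1149, 643 and 786 CPM, with log2 ratios of -0.84 (-0.95 to -0.72) for BMD and -0.55 (-0.66 to -0.44) for DMD. In the second it stood at 1064, 784 and 936 CPM, with ratios of -0.44 (-0.54 to -0.34) and -0.18 (-0.27 to -0.10). Pdgfra was thus lower than WT in both mutants within each finer cluster, by less in the Abca8a and Bmper-led one. Of 11 other fibroblast markers, 6 were below WT in BMD and 4 in DMD, and 3 (Dcn, Abca8a and Bicc1) stood in the order of Pdgfra. Their sum was 18220, 16486 and 20441 CPM in WT, BMD and DMD. Fibroblast-like nuclei made up 35.6, 24.3 and 29.1% of nuclei in WT, BMD and DMD, and over all nuclei Pdgfra stood at 373, 164 and 289 CPM. Free RNA carried 362, 186 and 280.4 CPM of Pdgfra.

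Pdgfra in the other classes was low. Lymphatic-like nuclei held 161, 64.1 and 97.1 CPM in WT, BMD and DMD, and mural-like nuclei 115, 45.7 and 119, all under free RNA. In mural-like nuclei, 67 of 80 Pdgfra UMIs in WT, 14 of 25 in BMD and 51 of 70 in DMD lay in 1 sub-cluster of 100 nuclei, of which 78.0% were called doublets and which raised 11 fibroblast markers. The pericyte-like sub-cluster held 21.1, 14.7 and 43.2 CPM. The BMD over WT log2 ratio of the whole mural-like class was -1.32 (-2.03 to -0.66), and 0.13 with finer clusters. The DMD ratio was 0.054 (-0.43 to 0.54), and 1.18 with finer clusters, at 22.2, 24.2 and 50.4 CPM in WT, BMD and DMD. Endothelial-like nuclei held between 8.72 and 32.6 CPM and cardiomyocyte-like nuclei between 5.02 and 9.61, also under free RNA.

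Pdgfrb, the beta receptor, was highest in mural-like nuclei, where the libraries did not differ beyond counting error. It stood at 1736 CPM in WT (1639 to 1836, 1212 UMIs), 1635 in BMD (1529.9 to 1746, 894 UMIs) and 1639.8 in DMD (1538 to 1747, 965 UMIs). The log2 ratios to WT were -0.09 (-0.21 to 0.04) for BMD and -0.08 (-0.21 to 0.04) for DMD. In the pericyte-like sub-cluster the levels were 2113, 2155 and 2066 CPM, and in the smooth muscle-like one 909, 791 and 1003. The pericyte-like level was the higher one in each library, by 2.32-fold in WT, 2.73-fold in BMD and 2.06-fold in DMD. At 500 UMIs per nucleus, 65.1% of pericyte-like nuclei had a Pdgfrb UMI in WT, 63.6% in BMD and 62.6% in DMD, against 1.18, 0.901 and 0.794% of T or B cell-like nuclei.

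**Figure D3:**
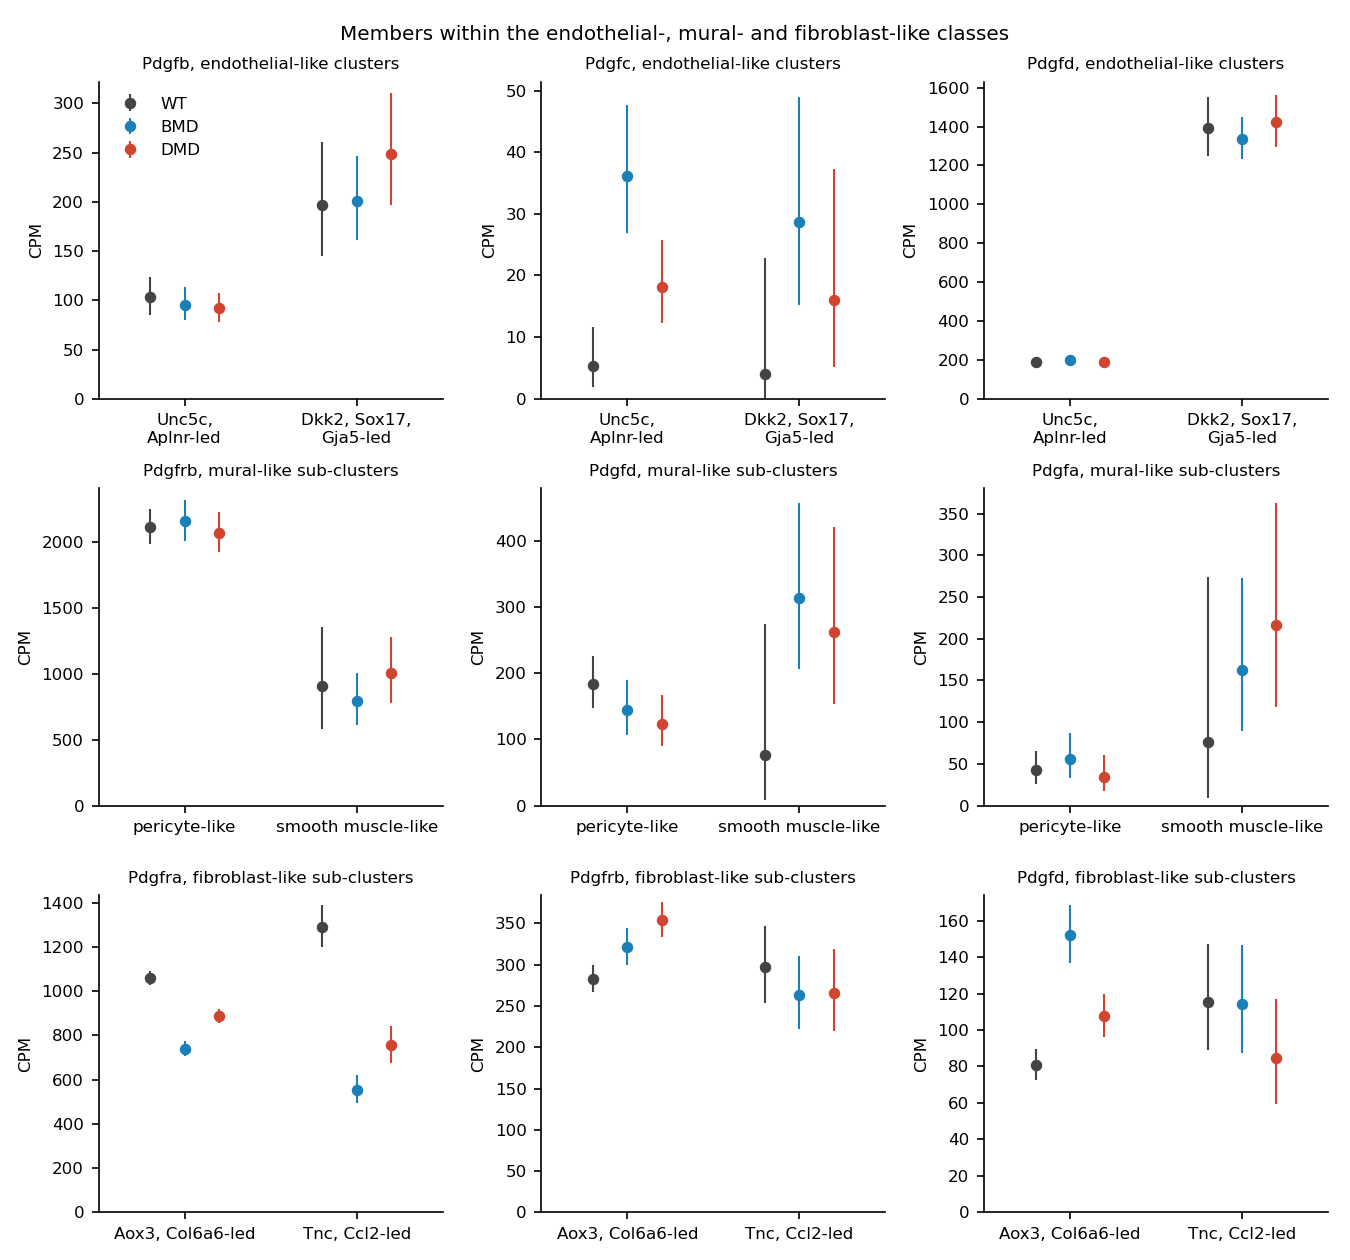
CPM of members within classes, 1 point per library (WT grey, BMD blue, DMD red) with 95% Poisson intervals, for the 2 endothelial-like clusters (top), the pericyte-like and smooth muscle-like sub-clusters (middle) and the 2 fibroblast-like sub-clusters (bottom). Pdgfd stands at 1338 to 1423 CPM in the Dkk2, Sox17 and Gja5-led endothelial-like cluster, and Pdgfrb at 2066 to 2155 CPM in pericyte-like nuclei.

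Fibroblast-like nuclei were the other site of Pdgfrb. They held 285 CPM in WT (269.9 to 299.96, 1393 UMIs), 311 in BMD (291 to 332, 917 UMIs) and 344 in DMD (324 to 364, 1201 UMIs). The order was the reverse of that of Pdgfra for WT against both mutants, at smaller log2 ratios of 0.13 (0.01 to 0.25) for BMD and 0.27 (0.16 to 0.38) for DMD. The higher mutant levels were seen in the Aox3 and Col6a6-led sub-cluster (283, 322 and 355 CPM) and not in the Tnc, Ccl2 and Ptx3-led one (297, 264 and 266). With finer clusters they were seen in both the Ltbp2 and Tnc-led one (270, 303 and 315) and the Abca8a and Bmper-led one (291, 323 and 364). In the first the log2 ratios were 0.17 (-0.03 to 0.37) for BMD and 0.22 (0.02 to 0.43) for DMD. In the second they were 0.15 (-0.02 to 0.32) and 0.32 (0.18 to 0.46). Fibroblast-like nuclei were more numerous than mural-like ones and deeper, at medians of 1217, 1595 and 1359.5 UMIs against 817, 1002.5 and 929. They held 46.5, 44.4 and 45.4% of all Pdgfrb UMIs, against 40.5, 43.3 and 36.5% in mural-like nuclei. Endocardial-like nuclei held 61.8 to 89.2 CPM, and no other class exceeded 51.4. Free RNA stood at 140.4 to 166 CPM and gave an estimated 6.5 to 7.66% of endocardial-like UMIs.

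Both receptors were found in few single nuclei after thinning, a share that low detection of each receptor keeps small. At 500 UMIs per nucleus, 177 of 3550 fibroblast-like nuclei had a UMI of each in WT (4.99%, 4.29 to 5.75), 62 of 1657 in BMD (3.74%, 2.88 to 4.77) and 93 of 2294 in DMD (4.05%, 3.28 to 4.94). The WT interval overlapped both others. Among pericyte-like nuclei 3 of 579 in WT, 1 of 335 in BMD and 5 of 377 in DMD had both. The T or B cell-like nuclei had 0 of 340, 0 of 222 and 0 of 252, which allows shares of up to 0.882, 1.35 and 1.19%, taking 3 nuclei of the total as the limit (the upper Clopper-Pearson bounds are 1.08, 1.65 and 1.45%). The share with both depends on depth, and without thinning it was 20.1, 24.3 and 23.6% of fibroblast-like nuclei. At 500 UMIs a Pdgfrb UMI was found in 12.8, 13.2 and 15.3% of them, which the share with both cannot exceed. Whether the 2 receptors lie in separate nuclei was not tested.

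**Figure D4:**
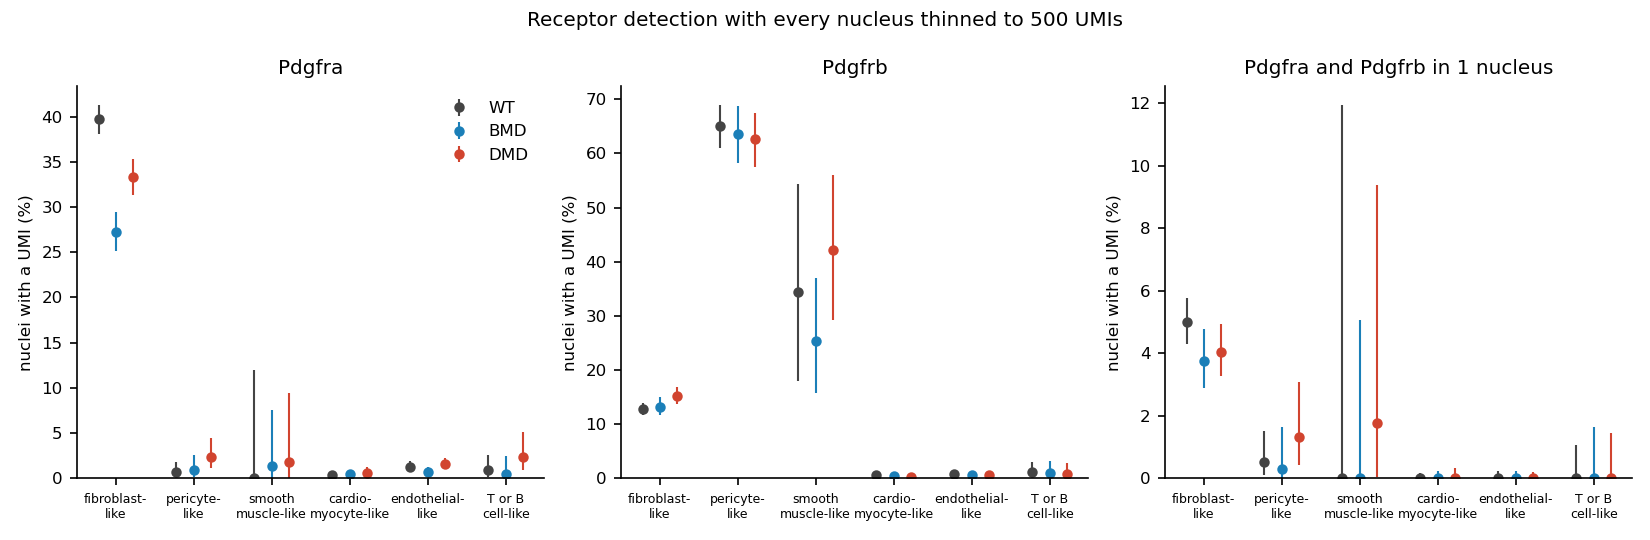
Percent of nuclei with at least 1 UMI of Pdgfra, of Pdgfrb and of both, after thinning every nucleus to 500 UMIs, in 4 classes and 2 mural-like sub-clusters (WT grey, BMD blue, DMD red, bars 95% Clopper-Pearson intervals). Pdgfra is found in 27.2 to 39.7% of fibroblast-like nuclei and Pdgfrb in 62.6 to 65.1% of pericyte-like nuclei.

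Against all genes of a class, members were counted as past the fold at 1.5-fold on CPM plus 5, among genes with at least 50 UMIs over both libraries. In cardiomyocyte-like nuclei 5 of the 6 members passed that filter. In BMD, 1 was lower (Pdgfc) and 0 higher, where 5.16% of all genes were lower and 4.5% higher. In DMD, 1 was lower (Pdgfc) and 1 higher (Pdgfd), beside 6.47% and 5.83% of all genes. In fibroblast-like nuclei 4 members passed, with 1 lower (Pdgfra) and 2 higher (Pdgfa and Pdgfd) in BMD, beside 6.28% and 4.13% of all genes. None was past the fold in fibroblast-like nuclei of DMD, where 2.95% of all genes were lower and 3.36% higher.

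In endothelial-like nuclei 5 members passed the filter in each comparison, without Pdgfrb in BMD and without Pdgfc in DMD. In BMD, 1 was lower (Pdgfra) and 1 higher (Pdgfc), beside 5.04% and 3.41% of all genes. Pdgfra stood there at 25.7 CPM in WT and 8.72 in BMD, on 35 and 16 UMIs, beside free RNA at 362 and 186. Free RNA gave an estimated 7.83 and 8.6% of endothelial-like UMIs in WT and BMD, a part large enough to hold all of this Pdgfra. Its count as lower is therefore not a result about endothelial cells. Pdgfc passed there only through its 63 BMD UMIs. In DMD 0 of the 5 were past the fold, beside 2.42% and 3.76%, and Pdgfc, at a log2 ratio of 1.79, was left out at 43 UMIs, so the 2 counts are of different members. In mural-like nuclei 4 passed, with 1 lower (Pdgfra) and 1 higher (Pdgfa) in BMD, beside 7.08% and 5.23% of all genes. Mural-like Pdgfra lay mostly in a doublet-rich sub-cluster, under free RNA, and its BMD ratio was 0.13 with finer clusters. In DMD, 0 were lower and 1 (Pdgfa) higher, beside 5.51% and 5.16%. A count among 4 or 5 genes is a description and sets no member apart from the other genes.

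A list of 83 genes of PDGF ligand processing, receptor signalling and feedback was counted in the same way. In fibroblast-like nuclei 8 of 75 listed genes were past the fold lower and 3 higher in BMD, and 3 of 76 lower and 1 higher in DMD. These are 10.7 and 4% of the list in BMD, beside 6.28% and 4.13% of all genes, and 3.95 and 1.32% in DMD, beside 2.95% and 3.36%. The list's median log2 ratio was -0.05 in BMD beside -0.05 for all genes, and -0.07 in DMD, where all genes stood at -0.02. Spry1, Spry2 and Spry4, feedback inhibitors of receptor tyrosine kinase signalling, were the 3 lower genes in DMD and were also among the 8 in BMD. Spry1 stood at 172 CPM in WT, 66.5 in BMD and 93.6 in DMD. Spry2 stood at 46.4, 22.4 and 22.6 CPM, and Spry4 at 52.9, 27.8 and 30.04. WT held the highest level of each of these genes, with log2 ratios (CPM plus 5) from -1.31 to -0.82 in BMD and from -0.90 to -0.72 in DMD. The other 5 lower genes of BMD fibroblast-like nuclei were Pcsk6, Pik3r2, Klf4, the kinase Mapk3 (53.9 CPM in WT, 23.8 in BMD) and the small GTPase Hras (20.6 and 8.48). Among the higher genes were the co-receptor Nrp2 (17.6, 31.2 and 30.6 CPM in WT, BMD and DMD) and the immediate early gene Fos (10.4, 20.02 and 16.3). Cbl, a ubiquitin ligase that removes activated receptors, stood at 84.6, 110.3 and 117 CPM.

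In mural-like nuclei 2 of 56 listed genes were lower and 0 higher in BMD, and 2 of 60 lower and 2 higher in DMD. These are 3.57 and 0% of the list in BMD, beside 7.08% and 5.23% of all genes, and 3.33% each way in DMD, beside 5.51% and 5.16%. The list medians were -0.06 and -0.07 beside -0.03 for all genes in both. Spry4 had the lowest ratio in both comparisons, at 107 CPM in WT, 54.9 in BMD and 47.6 in DMD on 75, 30 and 28 UMIs. The kinase Src followed at 54.4, 29.3 and 34.0 CPM on at most 38 UMIs per library. Lrp1, a receptor that binds PDGF-B and associates with the beta receptor, stood at 294, 209 and 221 CPM, and the transcription factor Sp1 at 170.4, 121 and 121. Genes at the upper end included the kinase Map2k2 (48.7, 67.7 and 51.0 CPM), the co-receptor Nrp1 (528, 695 and 520.0), Jun (28.6, 38.4 and 51.0), the scaffold gene Slc9a3r2 (32.9, 40.2 and 52.7) and the adaptor Nck1 (133, 128 and 159.7).

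In endothelial-like nuclei 6 of 67 listed genes were lower and 1 higher in BMD, and 2 of 68 lower and 0 higher in DMD. These are 8.96 and 1.49% of the list in BMD, beside 5.04% and 3.41% of all genes, and 2.94 and 0% in DMD, beside 2.42% and 3.76%. The list medians were -0.02 and -0.03 beside -0.03 and -0.01 for all genes. The lowest BMD ratios were those of Lrp1 (41.2 CPM in WT, 20.7 in BMD), the ERK phosphatase Dusp6 (41.9 and 21.8) and Mapk3 (104 and 59.96), and those of DMD were Spry4 (39.0 in WT, 19.2 in DMD), the convertase Pcsk5 (271 and 162) and Spry1 (30.9 and 19.2). The phosphatase Ptprk stood at 738, 1092 and 992 CPM in WT, BMD and DMD, and Ptpn2, a phosphatase, at 93.4, 124 and 119. Klf4, a vascular transcription factor, stood at 284, 222 and 387 CPM and the convertase Pcsk6 at 15.4, 18.5 and 22.2.

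In cardiomyocyte-like nuclei 4 of 67 listed genes were higher and 3 lower in BMD, and 6 of 65 higher and 3 lower in DMD. These are 5.97 and 4.48% of the list in BMD, beside 4.5% and 5.16% of all genes, and 9.23 and 4.62% in DMD, beside 5.83% and 6.47%. The list medians were -0.07 and -0.03 beside -0.05 and -0.04 for all genes. The 4 higher genes of BMD, Fos, Jun, Myc and Klf4, were early transcription factor targets. Fos stood at 4.18 CPM in WT, 56.1 in BMD and 17.2 in DMD, Jun at 31.3, 115 and 77.7, and Myc at 4.65, 17.3 and 12.6. BMD held the highest level of each of these 3 genes and WT the lowest. Gab1, a docking adaptor of receptor tyrosine kinases, was lower in both mutants, at 342 CPM in WT, 212 in BMD and 208 in DMD. Also at the lower end were Ptprk (954, 595 and 769.7 CPM), the convertase Furin (17.0, 9.16 and 14.2), Stat5a (9.61, 8.72 and 3.04) and the kinase subunit Pik3cb (22.6, 18.9 and 12.4).

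**Figure D5:**
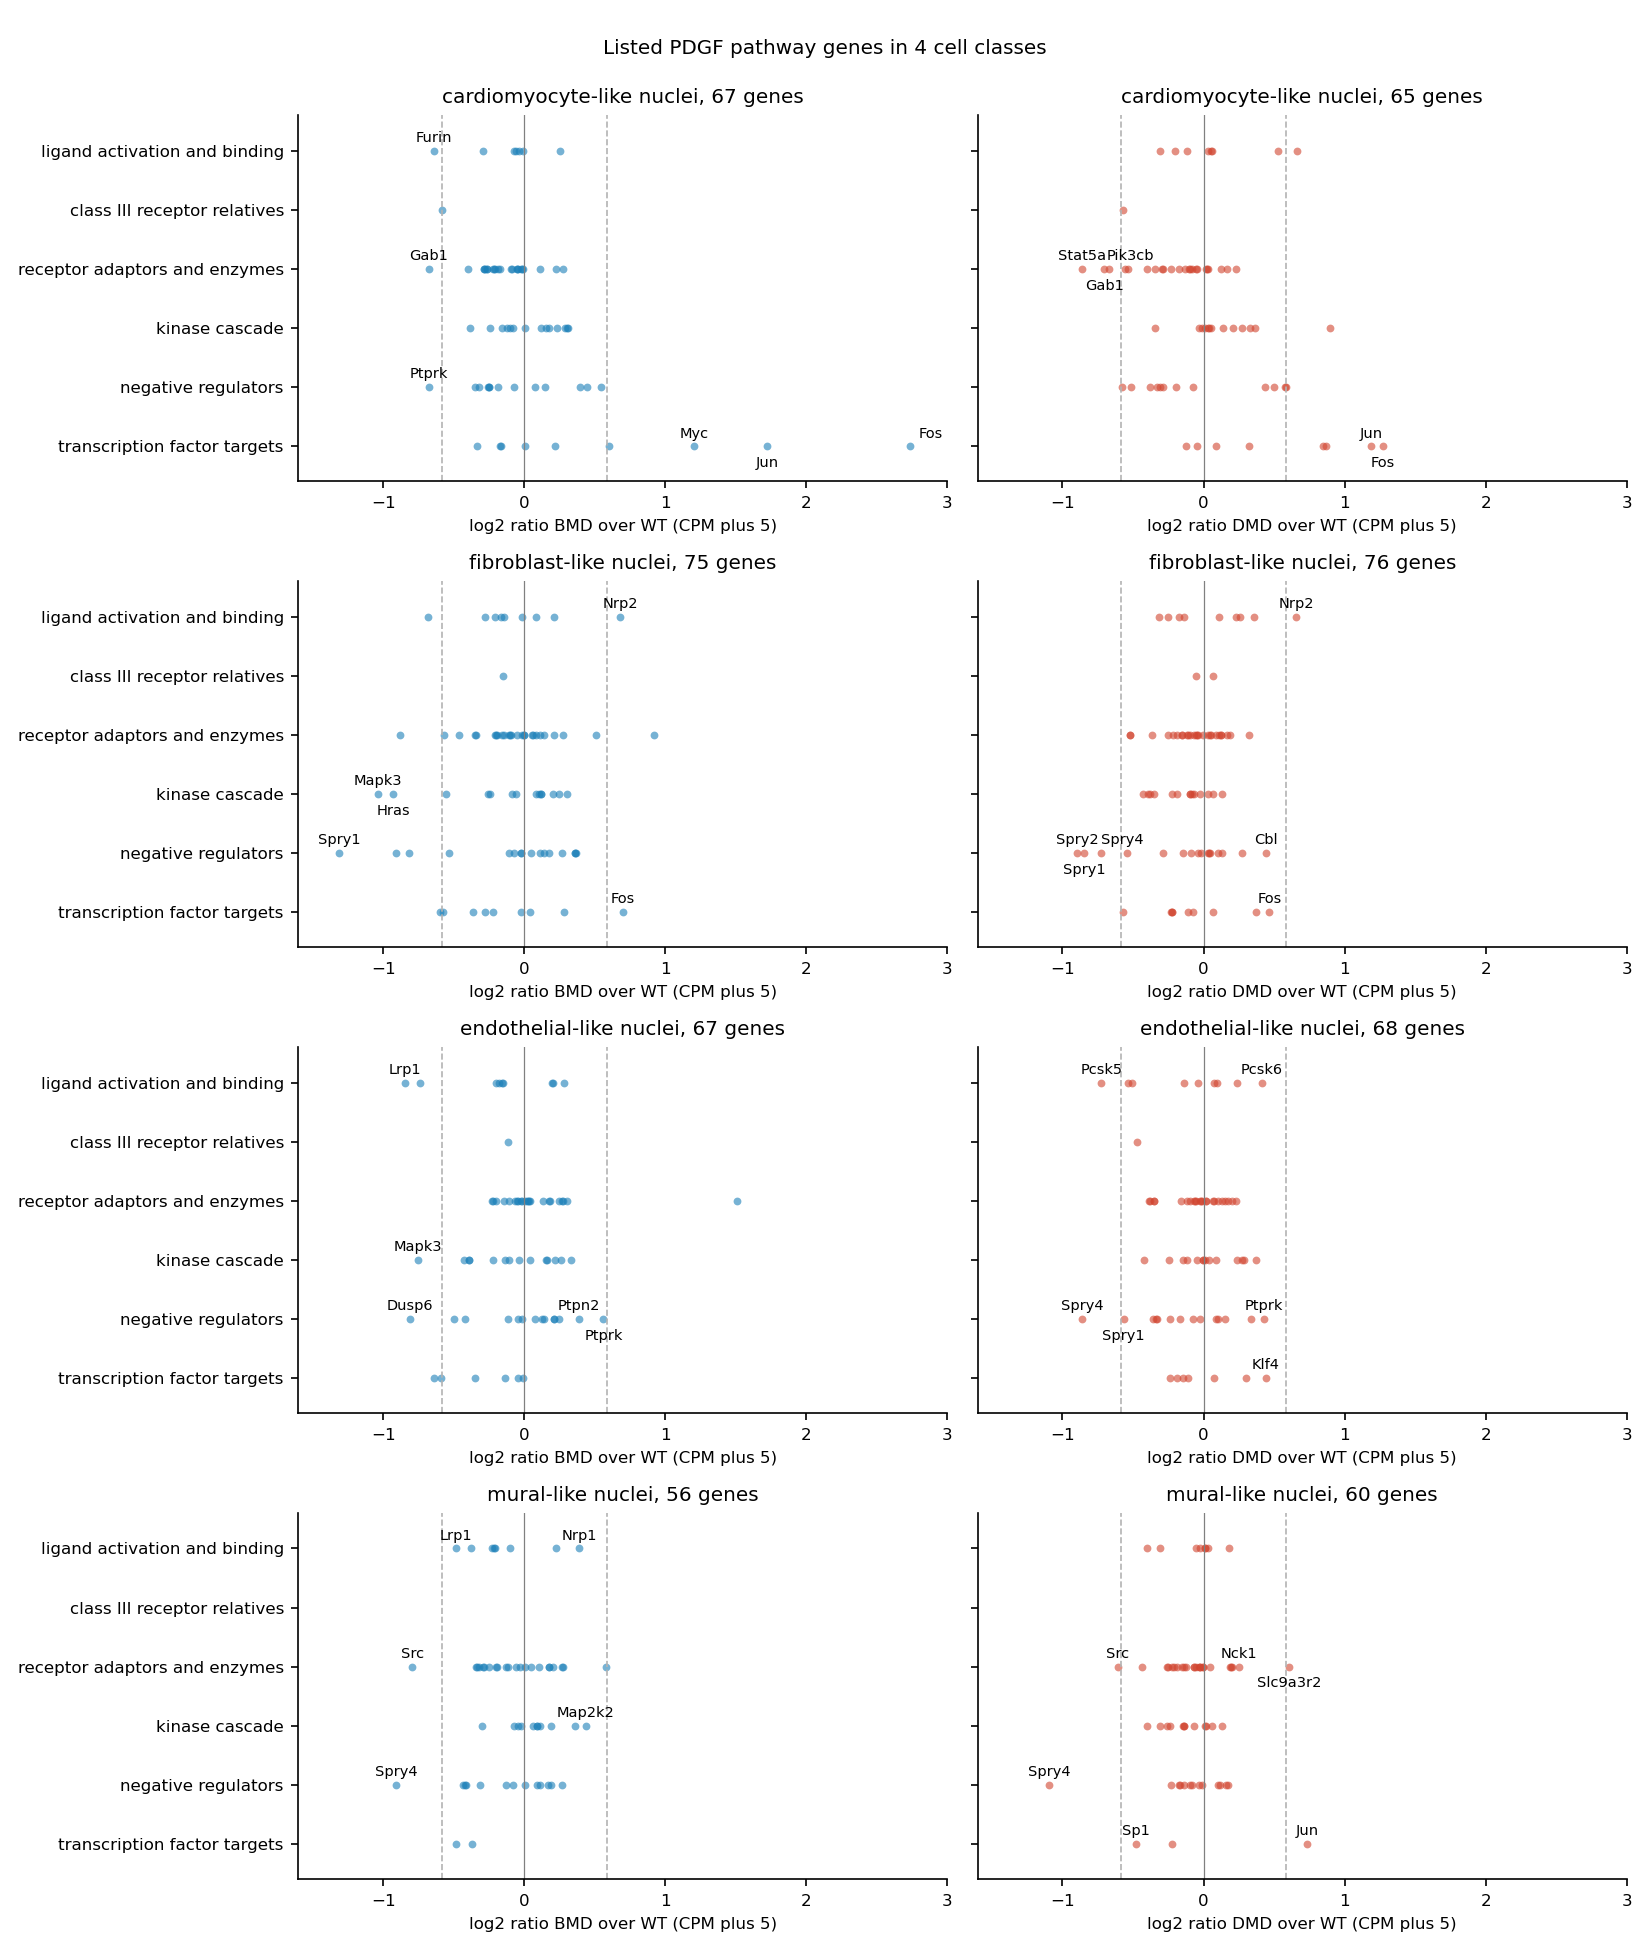
Log2 ratio to WT (CPM plus 5) of each listed pathway gene with at least 50 UMIs over both libraries, in rows by its role, for 4 classes and both comparisons (BMD over WT left, DMD over WT right). Dashed lines mark 1.5-fold, and names mark genes given in the text. Spry1, at -1.31 in BMD and -0.85 in DMD, and the other Sprouty genes lie left of the line in fibroblast-like nuclei.

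The genes whose pattern was most like that of each member were ranked by Pearson's r of log2 (CPM plus 5) over 24 pairs of class and library, among 11331 genes. These points share libraries and classes, so r is a description. Clmp (0.99), Rgs17 and Adgrd1 (both 0.97) were most like Pdgfra. Zfp385d and Sgip1 (both 0.94) were among the most like Pdgfrb, and Cmtm8 (0.94), Nxpe1 (0.93) and Trim25 (0.92) most like Pdgfb. Ralgapa1, Efr3b and Ptprg (all 0.86) were most like Pdgfd. The nearest patterns to Pdgfc were those of Lpgat1 (0.88), Cfp and Sipa1l2 (both 0.82), and to Pdgfa those of Tns1 (0.87), Filip1 (0.82) and Mgst3 (0.79). Between members, r was highest for the receptor pair, at 0.63, and lowest for Pdgfc with Pdgfra, at -0.50.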

How the data were processed

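Single-nucleus RNA was counted by the authors with Cell Ranger on rat build rn6, per the labels. The deposited matrices hold whole UMI counts for every barcode. File headers give version 6.0.1 for WT, whose file is an aggregate of all libraries from which the WT barcodes were taken, and 4 for BMD and DMD. The aggregate was depth-equalised and kept 76.1% of the BMD and 92.9% of the DMD UMIs. BMD and DMD counts came from their own, unreduced files, so this difference in processing runs along WT against both mutants. With the aggregate used for all, 12 log2 ratios in leading classes and 29 in others stayed within their counting intervals. Intron counting is not given in the sources used here. The number of nuclei per library stated in the methods was taken by UMI rank. Nuclei were clustered with scanpy 1.11.5 (2000 variable genes, 30 components, Leiden resolution 0.5) without the members, and doublets were called but kept. Clusters were named from fixed markers raised at least 2-fold (at least 3 of a list). This scoring rule was set after clusters had been seen. Counts were summed by class and library. Intervals are exact (Poisson, Clopper-Pearson, conditional binomial for ratios) and cover counting error only. Named pathway genes are the 3 highest and 3 lowest ratios per class and comparison. Some genes that this rule or the ranking of like genes selects are not reported here. Members and lists were chosen with earlier results of these data known. Scripts were tested on simulated data. TMM factors (edgeR 4.0.16) and the other alternatives are given in the closing section. No protein sequences were used here.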

Additional observations from a re-analysis of the deposited data

Results flagged for a closer look

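Pdgfc differed between BMD and WT in opposite directions in 2 classes. Its log2 ratio to WT was -1.85 in cardiomyocyte-like nuclei (95% interval for counting error -2.18 to -1.53) and 2.74 in endothelial-like nuclei (1.61 to 4.11, on 7 UMIs in WT). In finer clusters the cardiomyocyte-like ratio was -1.40 and -1.22, and over alternatives the endothelial-like one ran from 2.23 to 4.46. Endothelial-like Pdgfc passed the UMI filter in BMD only through its 63 BMD UMIs. In DMD the ratios lay in the same directions. They were -1.20 (-1.54 to -0.87) in cardiomyocyte-like and 1.79 (0.60 to 3.20) in endothelial-like nuclei. The latter rests on 36 UMIs against 7 in WT, under the filter. The opposite directions therefore do not set BMD apart from DMD. The difference between the classes was not tested, since each genotype had 1 library.

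Some signal lay in clusters that were left unnamed. Pdgfc stood at 558 CPM in DMD (397 to 763, 39 UMIs in 68 nuclei) in a cluster led by Ighm, Bank1, Ibsp, Pax5 and Bglap, with 0 UMIs in its 39 WT and 0 in its 39 BMD nuclei, which allows up to 73.3 CPM in WT. Pdgfd stood at 358 CPM in the same DMD nuclei, on 25 UMIs against 1 in WT. This cluster was mixed, with as many T or B cell markers raised as bone or cartilage ones. With the members allowed in the clustering, a separate T or B cell-like cluster led by Ighm, Bank1 and Pax5 held 36 DMD nuclei. The macrophage-like class then held 478 DMD nuclei, against 443, and its DMD ratio of Pdgfc was 0.76, against 0.14. Which nuclei held the 39 Pdgfc UMIs was not tested. In the cluster of which 89.2% of nuclei were called doublets, Pdgfd stood at 101 CPM in BMD and 111 in DMD against 45.7 in WT. In the one of which 77.8% were called doublets, Pdgfd stood at 209 CPM in DMD (183 to 238) against 145 in WT (119 to 174). None of these differences was tested.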

How the results depend on the processing

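No paired analysis was possible because there is 1 library per genotype, and leaving out a replicate was not run for the same reason. Of 142 alternative values of the log2 ratios in leading classes, 117 moved by less than their counting interval, and of 342 in other classes 301 did. The pericyte-like, fibroblast-like, cardiomyocyte-like and endothelial-like subsets and the removal of doublet-rich mural sub-clusters were chosen after seeing the data. Except where a value below shows it, the cause of a change was not tested. Depth limits values on few UMIs, such as Pdgfc in WT endothelial-like nuclei.

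Taking all nuclei together replaced each class ratio by that of a mixture. The ratio of Pdgfa was then 0.22 in BMD and -0.31 in DMD (mural-like 0.68 in DMD). That of Pdgfb was 0.41 and 0.78, of Pdgfc -0.77 and -0.46 (endothelial-like 2.74 in BMD), of Pdgfd 0.54 and 0.75, of Pdgfra -1.19 in BMD, and of Pdgfrb -0.34 and 0.14. In pericyte-like nuclei only, Pdgfa was at -0.29 in DMD. With nuclei of at least 1000 UMIs, endothelial-like Pdgfb was at 0.36 in BMD and 0.31 in DMD, Pdgfd at 0.41 in BMD, and macrophage-like Pdgfc at -0.35 in DMD. In the Dkk2, Sox17 and Gja5-led cluster alone, Pdgfb was at 0.34 in DMD and Pdgfd at -0.060 in BMD, and in the other endothelial-like cluster Pdgfd was at 0.080. In the larger fibroblast-like sub-cluster Pdgfra was at -0.52 in BMD. In the Ltbp2 and Tnc-led finer cluster it was at -0.84 in BMD and -0.55 in DMD, and in the Abca8a and Bmper-led one at -0.44 and -0.18. Cardiomyocyte-like Pdgfc was at -0.35 in DMD in the Xirp2 and Hs3st2-led finer cluster. With the members allowed in the clustering, macrophage-like Pdgfc was at 0.76 in DMD.

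At Leiden resolution 1, macrophage-like Pdgfc ratios were -0.93 in BMD and -0.46 in DMD, at 257, 135 and 187 CPM in WT, BMD and DMD. That class then held 245, 388 and 236 nuclei, against 651, 563 and 443 in the main clustering. Mural-like Pdgfra was then at 0.13 in BMD and 1.18 in DMD, and mural-like Pdgfrb at 1974, 1819 and 1855 CPM. Without called doublets, mural-like Pdgfrb stood at 1946, 1767 and 1833 CPM. With free RNA subtracted it stood at 1856, 1788 and 1813 CPM, endothelial-like Pdgfd at 517 in BMD and 417 in DMD, and fibroblast-like Pdgfra at 1120.5 in WT and 915 in DMD.

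Shares depended on the thinning depth and on the nuclei kept, since thinning to 1000 UMIs left out shallower nuclei. It kept 2356, 1381 and 1700 of 3550, 1657 and 2294 fibroblast-like nuclei in WT, BMD and DMD. Of 715, 460 and 521 mural-like nuclei it kept 225, 231 and 231. At 1000 UMIs, Pdgfra was found in 60.2, 44.8 and 52.9% of fibroblast-like nuclei in WT, BMD and DMD, both receptors in 14.05, 12.2 and 15%, and Pdgfrb in 70.7, 66.7 and 70.6% of mural-like nuclei. Without thinning these were 66.9, 59.4 and 63.7%, then 20.1, 24.3 and 23.6%, and then 78.0, 77.4 and 77.4%.

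Counts of pathway genes past the fold were less stable, with 36 of 80 moving by over 1.5 times. At a fold of 2, the counts of lower genes were 0 in cardiomyocyte-like nuclei of BMD (3 at 1.5-fold) and of DMD (3), 2 in fibroblast-like nuclei of BMD (8) and 0 of DMD (3), 0 in endothelial-like nuclei of BMD (6) and of DMD (2), and 0 in mural-like nuclei of BMD (2) and 1 of DMD (2). Those of higher genes were 2 in cardiomyocyte-like nuclei of DMD (6), 0 in fibroblast-like nuclei of BMD (3) and of DMD (1), and 0 in mural-like nuclei of DMD (2). With at least 200 UMIs, higher genes numbered 2 and 1 in cardiomyocyte-like nuclei of BMD and DMD, 1 and 0 in fibroblast-like nuclei, and 0 in mural-like nuclei of DMD. Lower genes numbered 1 in cardiomyocyte-like nuclei of DMD, 2 and 1 in endothelial-like nuclei, and 0 and 0 in mural-like nuclei of BMD and DMD. With at least 20 UMIs, 1 gene was higher in endothelial-like nuclei of DMD, and in mural-like nuclei 3 were higher and 5 lower in BMD and 4 higher and 5 lower in DMD. With free RNA subtracted, lower genes numbered 7 in cardiomyocyte-like, 6 in fibroblast-like and 5 in endothelial-like nuclei of DMD, and higher genes 0 in fibroblast-like and 1 in mural-like nuclei of DMD and 3 in endothelial-like nuclei of BMD. With TMM factors, 5 genes were lower in cardiomyocyte-like nuclei of DMD, and 2 were higher in endothelial-like and 1 in mural-like nuclei of BMD.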
